A study of Mus musculus with 16 samples.

Results

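Trim12a, Apobec3, Ifi206, Nlrp1a, H60b, Zfp979 and BC018473 are genes of innate and antiviral defence, and genes listed with them, whose transcript levels stood far apart between NOD and C57BL/6 (B6) T cells. They are 7 of the 19531 genes that had a probe set of their own on the array. They were chosen for the difference between the strains on these same arrays, so that difference is given as a description, without a test. Every probe set that the platform annotation assigns to exactly one of these symbols was used, which gave 8 of 25108 probe sets, 2 of them for Apobec3. A further probe set names Trim12a together with other genes, another names Zfp979 together with other genes, and neither was used.

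RNA came from CD4+ spleen T cells of 6-week-old male mice, sorted into regulatory T cells (Treg, GFP-positive) and conventional T cells (Tconv, GFP-negative). All mice carried a GFP reporter at Foxp3, the transcription factor that defines Treg, so that no group had an unmarked Foxp3 gene. In the fusion line (Foxp3-GFP) GFP is joined to the Foxp3 protein, and in the ires line (Foxp3-IRES-GFP) GFP is translated separately from the Foxp3 transcript. The 8 groups were NOD fusion Treg, NOD ires Treg, NOD fusion Tconv, NOD ires Tconv and the 4 matching groups on the B6 background, with 2 arrays each and 16 in all. NOD is a strain that develops autoimmune diabetes, and B6 is the usual laboratory reference strain. Whether the duplicate arrays of a group came from separate mice or from pools is not said, and the p-values cover only the spread between arrays, part or all of which may be technical.

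A gene was tested if it exceeded a filter of log2 6.06, the 40th percentile of all values, on at least 2 arrays, and is said to be called where its adjusted p (limma, Benjamini-Hochberg over the 12798 genes tested) was under 0.05. The sorted populations carried the marker of their label. Foxp3 lay between log2 11.37 and 12.16 on the Treg arrays, and between 7.01 and 8.18 on the Tconv arrays. The median intensity of an array was 86.7 to 99.0, the number of arrays limits the precision, and duplicates correlated at r = 0.993 to 0.995. All 6 Treg markers of a list were higher in Treg than in Tconv. Between the strains 4 of them were higher in NOD Tconv (Il2ra, Tnfrsf18, Ikzf2 and Foxp3, by 0.50 to 0.85) and 2 lower in NOD Treg (Lrrc32 and Ctla4). Of 4 T cell markers 2 were higher and 1 lower in NOD Treg and 2 higher in NOD Tconv. None of 2 tested B and plasma cell markers, 3 dendritic cell markers and 2 red cell and platelet markers was called between the strains. Of 5 tested markers of CD8 or gamma-delta T cells and NK cells, 3 were called lower in NOD Treg (Gzmb, Cd8b1 and Cd8a) and 1 was called lower in NOD Tconv (Klrd1). The summed intensity of that list was 732 to 966 on the NOD arrays and 866 to 1525 on the B6 arrays, and its defining NK markers Ncr1 and Klrb1c were under the filter. Of 3 tested myeloid markers, Lyz2 and Itgam were called lower in NOD Treg, with the list's sum at 273 to 468 on the NOD arrays and 349 to 394 on the B6 arrays. The part of these cells in the levels below was not tested. In sorted bulk RNA, fewer expressing cells and less RNA per cell cannot be told apart.

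Cells carry proteins that detect or block viruses from within, and many of their genes are induced by interferon. Retroviruses are met at several steps: TRIM proteins related to primate TRIM5 bind incoming capsids, and APOBEC3 deaminates viral DNA as it is copied. Proteins of the HIN-200 family, clustered on mouse chromosome 1, bind DNA and are induced by interferon, and NLRP1 proteins assemble inflammasomes that activate caspase-1. H60 proteins are ligands of NKG2D, an activating receptor of NK cells and cytotoxic T cells, and KRAB zinc finger proteins silence endogenous retroviruses and other repeats.

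The 250 bases before the annotated start are shown for the genes that RefSeq lists in its promoter table (build GRCm38.p6, 5 of the 7 genes), since the 3 genes with low levels in NOD can be set beside genes with high levels in NOD. The assembly is that of C57BL/6J, so these are the B6 letters, and the NOD sequence was not used here. Capitals mark matches to motifs searched on both strands, and sequences run 5′ to 3′ on the strand of the gene. The first 3 genes were low in NOD and the last 2 were high in NOD.
Trim12a, chr7:104315496-104315745, minus strand: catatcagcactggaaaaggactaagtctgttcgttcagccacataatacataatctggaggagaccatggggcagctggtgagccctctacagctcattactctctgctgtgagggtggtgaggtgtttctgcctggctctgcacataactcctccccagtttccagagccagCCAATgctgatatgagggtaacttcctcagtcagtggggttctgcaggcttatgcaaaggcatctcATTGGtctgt
Apobec3, first of 2 starts, chr15:79892158-79892407, plus strand: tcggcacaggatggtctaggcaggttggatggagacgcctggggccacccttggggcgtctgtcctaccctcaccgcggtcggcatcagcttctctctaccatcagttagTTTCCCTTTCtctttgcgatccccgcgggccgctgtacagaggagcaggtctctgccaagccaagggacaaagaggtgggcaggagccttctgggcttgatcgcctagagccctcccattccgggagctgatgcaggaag
Ifi206, chr1:173491319-173491568, minus strand: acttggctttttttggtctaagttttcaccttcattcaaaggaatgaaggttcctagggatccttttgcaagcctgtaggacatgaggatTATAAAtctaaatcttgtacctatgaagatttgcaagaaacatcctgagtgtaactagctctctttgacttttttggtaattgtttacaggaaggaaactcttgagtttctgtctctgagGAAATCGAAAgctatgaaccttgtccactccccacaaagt
Nlrp1a, chr11:71144705-71144954, minus strand: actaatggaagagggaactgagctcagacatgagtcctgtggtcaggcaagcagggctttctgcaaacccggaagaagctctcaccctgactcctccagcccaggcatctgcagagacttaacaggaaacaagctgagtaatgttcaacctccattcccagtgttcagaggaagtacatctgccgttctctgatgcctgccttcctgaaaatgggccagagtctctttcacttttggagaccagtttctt
Zfp979, chr4:147642509-147642758, minus strand: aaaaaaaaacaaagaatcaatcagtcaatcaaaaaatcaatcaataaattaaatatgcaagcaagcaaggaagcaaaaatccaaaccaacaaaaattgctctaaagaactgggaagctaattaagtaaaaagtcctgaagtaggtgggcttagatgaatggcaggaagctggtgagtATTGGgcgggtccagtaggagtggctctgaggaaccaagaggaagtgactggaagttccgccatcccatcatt
The core of the interferon-stimulated response element, GAAA followed after any 2 bases by GAAA, was found in Ifi206 (its first base 40 bases before the start) and in Apobec3 (140 bases before the first start), and in 2.98% of 32851 promoters in the table. The CCAAT box, the letters CCAAT, was found at 76 and 10 bases before the start of Trim12a and at 73 bases in Zfp979, and in 33.8% of promoters. The window of the second Apobec3 start, not shown, held a CCAAT box at 97 bases and none of the other motifs searched. The TATA box, TATAAA, was searched on the strand of the gene only, and was found in Ifi206 at 160 bases before the start and in 7.59% of promoters. The core of the STAT site, TTCNNNGAA, was in none of these windows and in 7.02% of promoters, and the Nlrp1a window held none of the 4 motifs. A match is a run of letters, and no binding was measured.

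**Figure D1:**
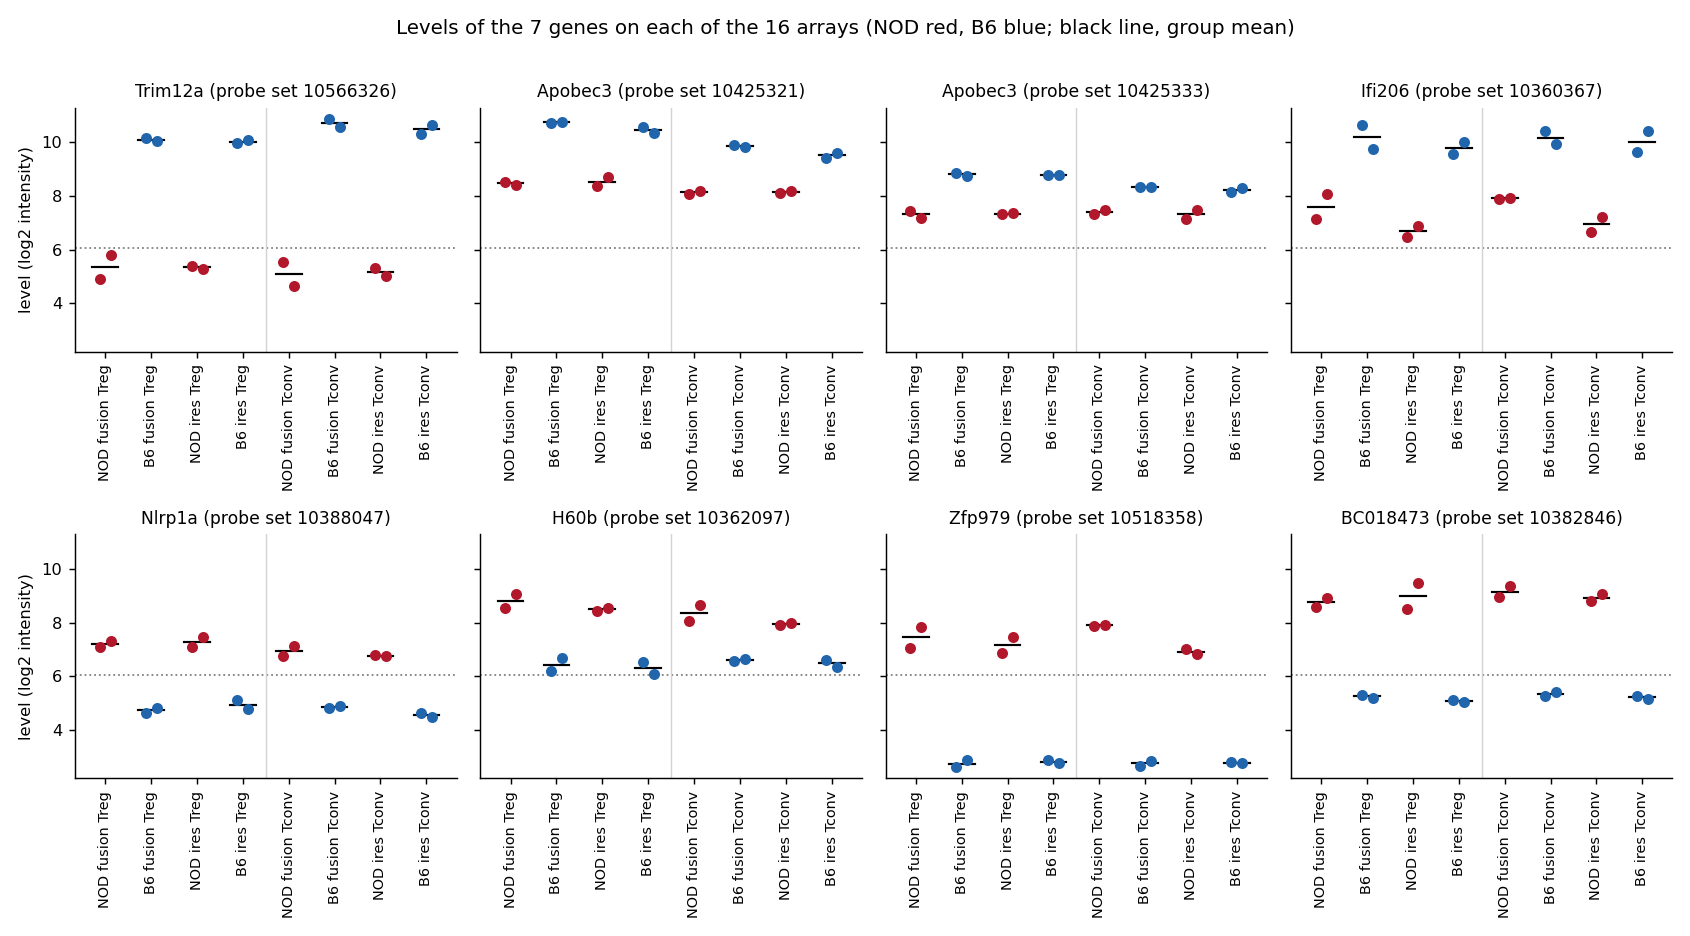
Log2 intensity (vertical axes) of each probe set of the 7 genes on the 16 arrays, with NOD (red) left of B6 (blue) in each cell type and line, points for arrays, black lines for group means and a dotted line at the filter of 6.06. In every panel all 8 NOD arrays lie on one side of all 8 B6 arrays, lower for Trim12a, Apobec3 and Ifi206 and higher for Nlrp1a, H60b, Zfp979 and BC018473.

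Levels are log2 intensities, and levels of different probe sets cannot be compared with each other. Trim12a, Apobec3 and Ifi206 were lower in NOD, and Nlrp1a, H60b, Zfp979 and BC018473 were higher in NOD, in both cell types and both reporter lines. All 8 NOD arrays lay on one side of all 8 B6 arrays for each of the 7 genes, as they did for 4.45% of the 12798 genes tested (2.70% with NOD above and 1.74% with NOD below). Because the genes were picked for this, nothing is read from that count. All 7 passed the filter. Trim12a passed through its B6 arrays alone, and Nlrp1a, Zfp979 and BC018473 through their NOD arrays alone.

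Trim12a, a mouse relative of the capsid-binding TRIM5 gene of primates, was high in B6 and under the filter in NOD. It lay between 4.63 and 5.79 on the NOD arrays, with a median of 5.29, and between 9.96 and 10.87 on the B6 arrays, with a median of 10.24. None of the NOD arrays exceeded the filter, and the gap between the strains, 4.18, was wider than the widest gap between duplicates, 0.90. In NOD T cells the probe set stood at the 23.6 percentile of an array's genes on average, against the 96.1 percentile in B6 T cells. NOD minus B6 was -4.72 ± 0.18 (SE) in Treg and -5.48 ± 0.18 in Tconv, and no fold is given, since the NOD levels are under the filter. By line it was -4.75 in fusion Treg, -4.69 in ires Treg, -5.63 in fusion Tconv and -5.33 in ires Tconv.

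Apobec3, which encodes the mouse cytidine deaminase packaged into retroviral particles, was well expressed in both strains. In NOD it lay at 8.52 and 8.42 in fusion Treg, 8.38 and 8.70 in ires Treg, 8.08 and 8.19 in fusion Tconv, and 8.11 and 8.17 in ires Tconv. In B6 it lay at 10.71 and 10.77 in fusion Treg, 10.58 and 10.36 in ires Treg, 9.90 and 9.83 in fusion Tconv, and 9.41 and 9.61 in ires Tconv. The strains did not overlap, Treg arrays stood above Tconv arrays within each strain, and duplicates were at most 0.32 apart. NOD minus B6 was -2.10 ± 0.09 in Treg and -1.55 ± 0.09 in Tconv, so that B6 was 4.29-fold and 2.93-fold higher. The second Apobec3 probe set was dimmer, at 7.14 to 7.49 on the NOD arrays and 8.14 to 8.86 on the B6 arrays, again without overlap. Its strain difference was smaller, at -1.46 ± 0.09 in Treg and -0.92 ± 0.09 in Tconv.

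Ifi206, an interferon-inducible HIN-200 gene, had the largest pooled SD between duplicates of the 7 genes, 0.44. In NOD it lay at 7.13 and 8.08 in fusion Treg, 6.48 and 6.88 in ires Treg, 7.87 and 7.94 in fusion Tconv, and 6.67 and 7.21 in ires Tconv. In B6 it lay at 10.64 and 9.75 in fusion Treg, 9.57 and 10.00 in ires Treg, 10.40 and 9.93 in fusion Tconv, and 9.63 and 10.41 in ires Tconv. The highest NOD array was still 1.49 below the lowest B6 array. NOD minus B6 was -2.85 ± 0.22 in Treg and -2.67 ± 0.22 in Tconv, a level 7.19-fold and 6.37-fold higher in B6. By line it was -2.59 in fusion Treg and -3.10 in ires Treg, and -2.26 in fusion Tconv and -3.08 in ires Tconv.

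Nlrp1a, an inflammasome sensor, lay between 6.76 and 7.47 on the NOD arrays (median 7.10) and between 4.48 and 5.10 on the B6 arrays (median 4.79). No B6 array exceeded the filter, and in B6 the gene stood at the 14.4 percentile of an array's genes on average. Its strain difference, NOD minus B6, was 2.40 ± 0.11 in Treg and 2.16 ± 0.11 in Tconv, set against B6 levels under the filter, so no fold is given. The 4 combinations of cell type and line spanned 2.10 (fusion Tconv) to 2.46 (fusion Treg), the narrowest span of the 7 genes.

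H60b, a ligand of NKG2D that resembles MHC class I, was above the filter on all 16 arrays. It lay between 7.92 and 9.06 on the NOD arrays (median 8.49) and between 6.10 and 6.67 on the B6 arrays (median 6.56). The strain difference was 2.27 ± 0.15 in Treg and 1.62 ± 0.15 in Tconv, 4.82-fold and 3.07-fold. The smallest difference was 1.48, in ires Tconv, and the largest 2.37, in fusion Treg.

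Zfp979, a zinc finger gene of the KRAB cluster on chromosome 4, lay between 6.82 and 7.91 on the NOD arrays (median 7.28) and between 2.61 and 2.89 on the B6 arrays (median 2.78). The B6 values sit at the bottom of the array, at the 0.250 percentile of its genes, where the lowest value on any array was 2.21. No fold is given, since the array resolves little at that level. NOD minus B6 was 4.53 ± 0.14 in Treg and 4.64 ± 0.14 in Tconv. It was 4.70 in fusion Treg and 4.35 in ires Treg, and 5.14 in fusion Tconv and 4.13 in ires Tconv.

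BC018473, which RefSeq lists as a long non-coding RNA gene, lay between 8.52 and 9.49 on the NOD arrays (median 8.94) and between 5.06 and 5.42 on the B6 arrays (median 5.23). No B6 array exceeded the filter. Duplicates differed most in NOD ires Treg, at 8.52 and 9.49. NOD minus B6 was 3.71 ± 0.15 in Treg and 3.77 ± 0.15 in Tconv, again with no fold against B6 levels under the filter, and 3.51 to 3.92 over the 4 combinations of cell type and line.

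**Figure D2:**
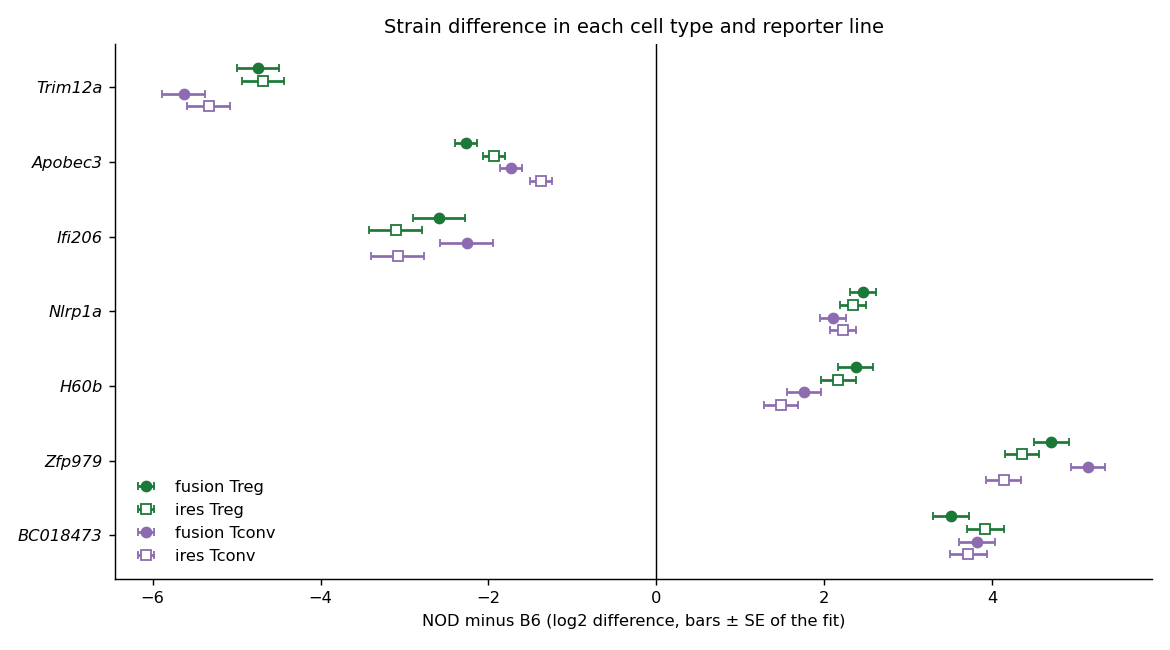
NOD minus B6 (horizontal axis, log2 difference) for the 7 genes in Treg (green) and Tconv (purple) of the fusion line (filled circles) and the ires line (open squares), with bars of ± 1 SE from the linear model. Each gene keeps its direction in all 4 combinations, from -5.63 for Trim12a in fusion Tconv to 5.14 for Zfp979 in fusion Tconv.

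The array's probes follow the reference sequence, sequence differences of NOD under these probes were not analysed here, and their part in the strain differences was not tested.

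Treg were then set against Tconv over both strains and lines, a contrast that was not used to choose the genes. It called 2 of the 7, Apobec3 and Nlrp1a, both higher in Treg. Of all genes tested 28.6% were called in either direction (16.7% higher and 11.9% lower in Treg), so the count is near the background. Of those calls 58.4% were higher in Treg, 50% with arrays centred on their medians and 48.9% with quantile normalization. Apobec3 was higher in Treg by 0.64 ± 0.06 (limma, adjusted p = 2.45e-07), and its second probe set by 0.25 ± 0.07 (adjusted p = 0.00774 over 13841 probe sets). Nlrp1a was higher in Treg by 0.26 ± 0.08 (adjusted p = 0.0160), a mean over both strains in which the B6 levels were all under the filter. The call on Nlrp1a did not hold after centring each array on its median (adjusted p = 0.0517). Nor did it hold without NOD fusion Tconv replicate 1 (adjusted p = 0.0515), without B6 ires Treg replicate 1 (0.0541) or without NOD ires Treg replicate 2 (0.0527). The other 5 genes were not called: H60b at 0.16 (adjusted p = 0.280), Trim12a at -0.15 (0.425), Ifi206 at -0.19 (0.417), Zfp979 at -0.04 (0.846) and BC018473 at -0.14 (0.401). Trim12a in NOD, and Zfp979 and BC018473 in B6, were under the filter on all arrays, which limits their values here. Without NOD ires Treg replicate 2, BC018473 was called lower in Treg, at -0.26 (adjusted p = 0.0227).

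Within the strains, Treg minus Tconv for Apobec3 was 0.37 in NOD and 0.91 in B6. The 4 NOD Treg arrays averaged 8.50 ± 0.14 (SD, n = 4 each) and the 4 NOD Tconv arrays 8.14 ± 0.05, while the B6 Treg arrays averaged 10.60 ± 0.18 and the B6 Tconv arrays 9.69 ± 0.22. For its second probe set the values were -0.03 in NOD and 0.52 in B6. For Trim12a they were 0.23 ± 0.18 (SE) in NOD, where its levels were under the filter, and -0.54 ± 0.18 in B6. For H60b they were 0.49 ± 0.15 and -0.16 ± 0.15. For Nlrp1a they were 0.38 ± 0.11 and 0.14 ± 0.11, with its B6 levels under the filter. Ifi206, Zfp979 and BC018473 lay between -0.28 and 0.02 in both strains.

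**Figure D3:**
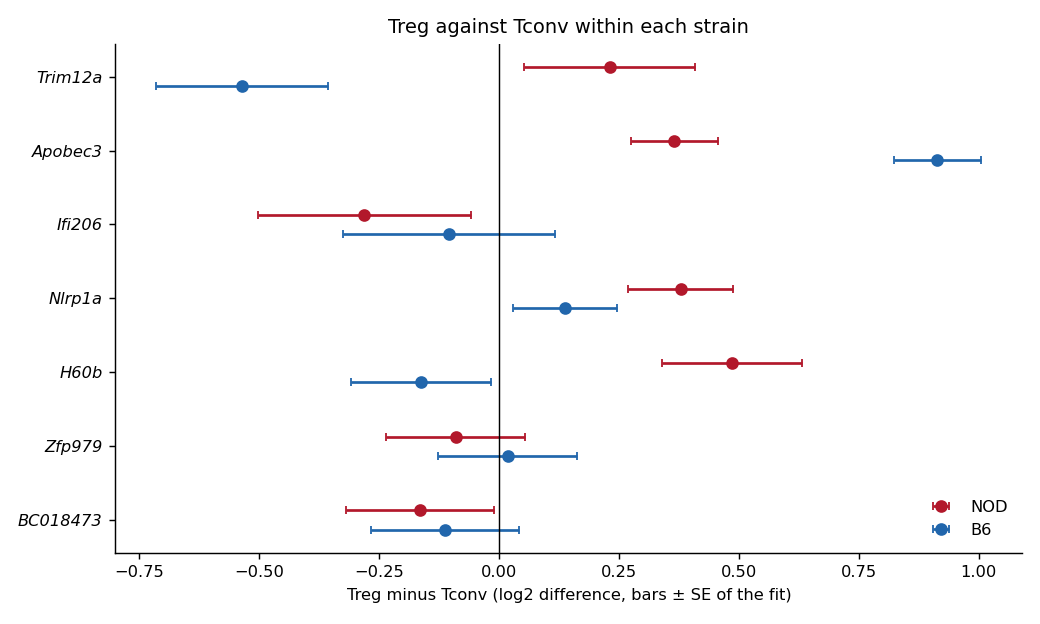
Treg minus Tconv (horizontal axis, log2 difference) for the 7 genes within NOD (red) and within B6 (blue), with bars of ± 1 SE from the linear model. Apobec3 (its brighter probe set) lies right of 0 in both strains, at 0.37 in NOD and 0.91 in B6. Trim12a and H60b lie right of 0 in NOD and left of 0 in B6. Of these, Trim12a in NOD (0.23 ± 0.18, levels under the filter) and H60b in B6 (-0.16 ± 0.15) lie near 0.

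Whether the strain difference itself differed between the cell types was tested as an interaction, which called 0.820% of the 12798 genes (1267 genes had an unadjusted p under 0.05) and none of the 7 by limma (3 at an unadjusted p under 0.05, Apobec3, Trim12a and H60b). The strain difference of Apobec3 in Treg minus that in Tconv was -0.55 ± 0.13 (adjusted p = 0.0553), and its second probe set gave the same value, -0.55 ± 0.13 (adjusted p = 0.0661 over 13841 probe sets). This result lay next to the threshold. It passed with trended and robust variances (adjusted p = 0.0169), with the 60th percentile as filter (0.0384), with the mean of the 2 probe sets (0.0400), without B6 ires Tconv replicate 2 (0.0381) and without NOD ires Treg replicate 2 (0.0265), and its highest adjusted p over all alternatives was 0.18. Trim12a had 0.77 ± 0.25 (adjusted p = 0.235, and 0.0496 without NOD fusion Tconv replicate 1), but its NOD levels are all under the filter, so that the NOD side of this value compares levels at which the array resolves little. H60b had 0.65 ± 0.21 (0.217), and Nlrp1a, Ifi206, Zfp979 and BC018473 lay between -0.18 and 0.24. The interaction is uncorrelated with the mean strain difference in this balanced design, but the genes were chosen with their values in each cell type in view.

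None of the 7 genes was called between the reporter lines by limma, with 1 at an unadjusted p under 0.05 in Treg (Ifi206) and 3 in Tconv (Ifi206, Nlrp1a and Zfp979). The fit called 0.609% of all genes for fusion minus ires in Treg and 0.0234% in Tconv, with 966 and 380 genes at an unadjusted p under 0.05. The largest value among the 7 genes was that of Ifi206, at 0.67 ± 0.22 in Treg (adjusted p = 0.301) and 0.56 ± 0.22 in Tconv (adjusted p = 0.999). Zfp979 differed by 0.10 in Treg and 0.49 ± 0.14 in Tconv (adjusted p = 0.864), and the other 5 genes lay between -0.15 and 0.27. The Zfp979 values are means over both strains, and its B6 levels lay at the bottom of the array. In Tconv it averaged 7.90 in NOD fusion and 6.91 in NOD ires, against 2.76 and 2.78 in the B6 groups. Nlrp1a in Tconv averaged 6.95 in NOD fusion and 6.77 in NOD ires. In B6 it averaged 4.85 and 4.56, levels under the filter. The strain difference in fusion minus that in ires called 0.117% of genes (535 at an unadjusted p under 0.05) and again none of the 7, with 3 at an unadjusted p under 0.05. These 3 were Zfp979 at 0.68 ± 0.20 (adjusted p = 0.828), Ifi206 at 0.67 ± 0.31 and Apobec3 at -0.35 ± 0.13 (both 0.984). The B6 side of the Zfp979 value compares levels at which the array resolves little.

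Ifi206 belongs to an interferon-induced family, so its level was set beside 22 tested interferon response genes of a list. The median of these genes on an array was 7.30 to 8.0 on the NOD arrays and 7.73 to 8.74 on the B6 arrays. The 2 B6 fusion arrays numbered 1 stood highest, at 8.59 in Treg and 8.74 in Tconv, against 7.98 and 7.73 on their duplicates. Of the 2 arrays of a group, the one with more Ifi206 also had the higher interferon median in 7 of 8 groups, NOD fusion Treg being the exception. The same count was 6 of 8 for Apobec3, 4 of 8 for Trim12a and BC018473, 3 of 8 for H60b, and 2 of 8 for Nlrp1a and Zfp979. The share of all genes with such counts was not computed. Deviations of arrays from their group means also correlated between groups, at -0.37 to 0.47, so nothing is read from these counts. Without these B6 fusion arrays, NOD minus B6 for Ifi206 was -2.63 in Treg and -2.55 in Tconv.

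**Figure D4:**
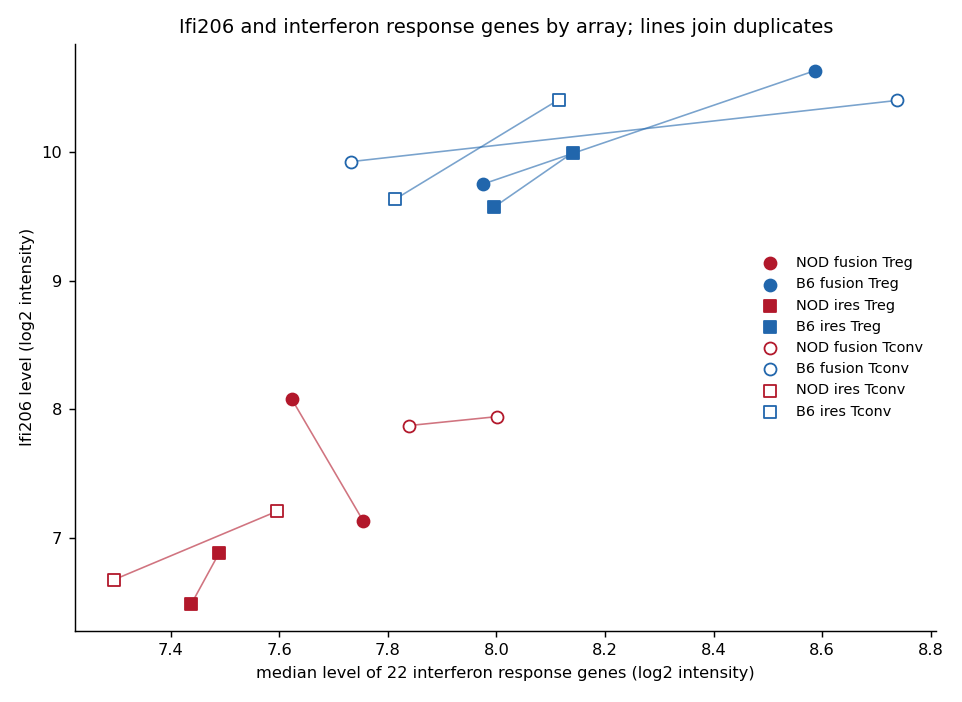
Ifi206 level (vertical axis) against the median of 22 interferon response genes (horizontal axis), both log2 intensity, for the 16 arrays, with NOD in red, B6 in blue and lines joining the 2 arrays of a group. Lines rise to the right in 7 of 8 groups, and all NOD arrays, at 8.08 or lower, lie under all B6 arrays, at 9.57 or higher.

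Of the 22 interferon response genes, 7 were called lower in NOD Treg and 4 in NOD Tconv and none higher in either, with medians of -0.47 and -0.37, against medians of -0.02 and 0.02 over all genes tested. The list medians were not computed without the 2 B6 fusion arrays numbered 1. In Treg the calls on Usp18, Ifih1, Oas1a and Oas3 ended in 6, 5, 4 and 1 of 26 alternatives. In Tconv those on Oas2, Oas3 and Oasl1 ended in 9, 2 and 1 of 26. Those on Eif2ak2 held in all 26. Over all genes, 21.0% were called between the strains in Treg (11.2% higher and 9.82% lower in NOD) and 15.9% in Tconv (9.39% higher and 6.49% lower). Of these calls 53.3% in Treg and 59.1% in Tconv were higher in NOD, and 68.7% and 84% after centring each array on its median. Eif2ak2, the kinase PKR that stops translation on double-stranded RNA, was lower, at -1.47 ± 0.13 in Treg (adjusted p = 2.51e-07) and -1.23 ± 0.13 in Tconv (adjusted p = 2.47e-06). Oas3 and Oasl1, of the oligoadenylate synthetase family, were lower, at -0.68 ± 0.16 and -0.65 ± 0.15 in Treg and at -0.63 ± 0.16 and -0.61 ± 0.15 in Tconv.

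The relatives and neighbours of each gene were examined next. For each gene the 5 nearest tested genes on either side on its chromosome were taken in the order of the RefSeq table (assembly GRCm38.p6), 70 in all. Of these, 23 were called between the strains in Treg (32.9%) and 24 in Tconv (34.3%), 14 of them in both, beside the 21.0% and 15.9% of all genes. In Treg 8 were higher and 15 lower in NOD, and in Tconv 9 were higher and 15 lower. None had a strain difference as large as that of the gene it lay beside. Those genes were chosen for their strain differences, so nothing is read from this. Of the 70 neighbours, 2 lay above and 6 below on all NOD arrays against all B6 arrays. Of all genes tested, 2.70% lay above and 1.74% below in this way.

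**Figure D5:**
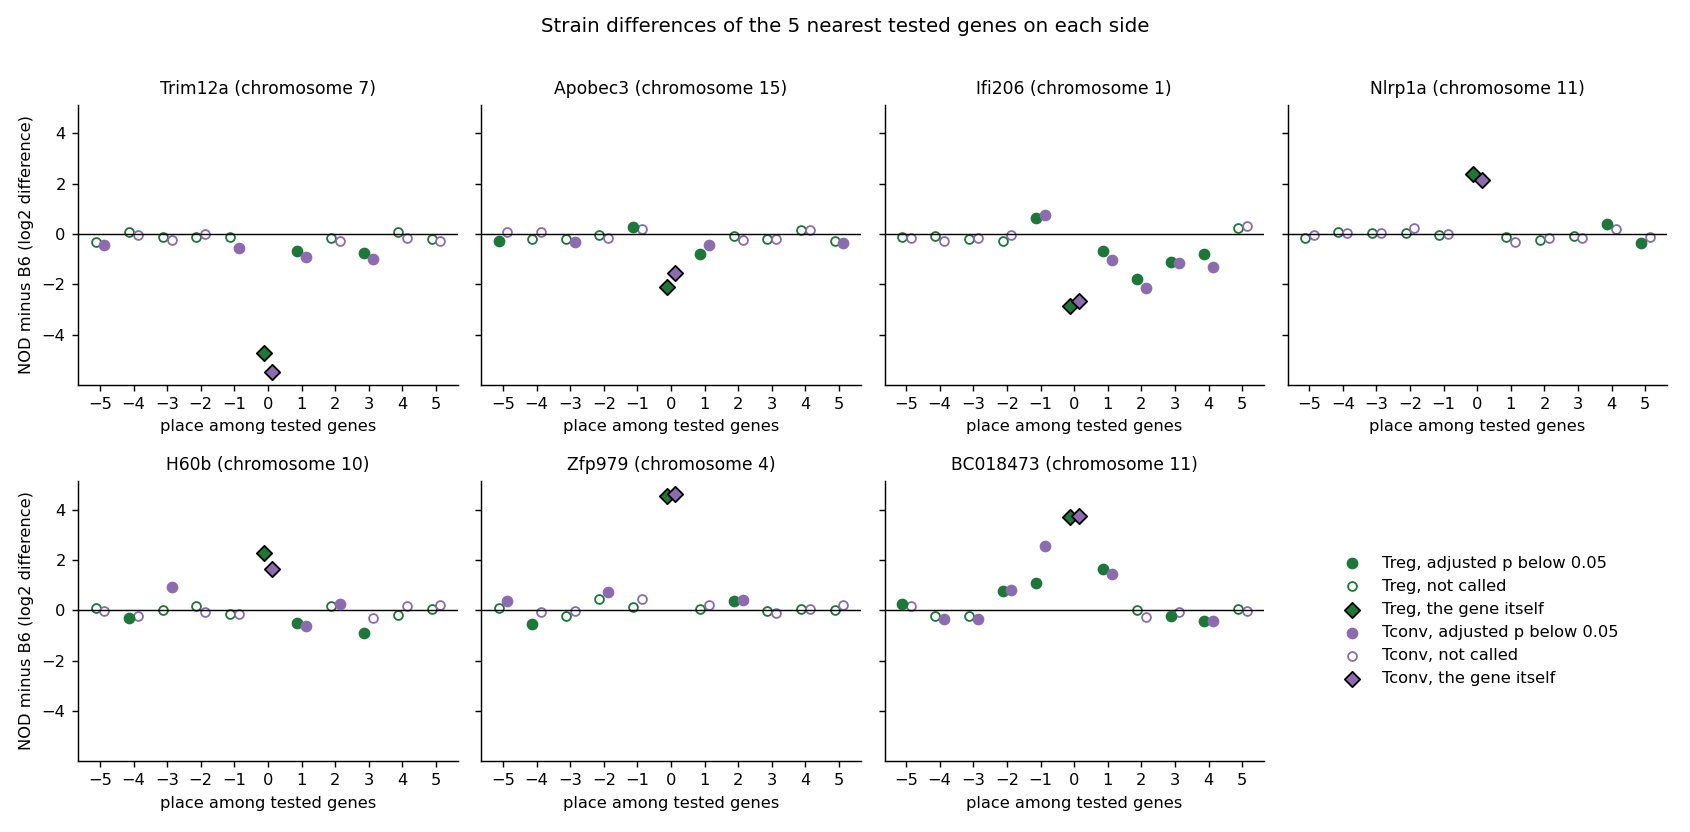
NOD minus B6 (vertical axes, log2 difference) for the 5 nearest tested genes on each side of each of the 7 genes (horizontal axes, place in the order along the chromosome, the gene itself at 0 as a diamond), in Treg (green) and Tconv (purple), filled where called at an adjusted p under 0.05. The 4 genes right of Ifi206 share its direction, from -0.69 to -2.16, and both genes beside BC018473 share its direction, from 1.08 to 2.57.

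Beside Ifi206, 5 of 10 neighbours were called in both cell types. The HIN-200 genes Ifi213, Ifi209, Ifi208 and Ifi214 were lower in NOD, at -1.79 ± 0.22, -1.09 ± 0.15, -0.80 ± 0.13 and -0.69 ± 0.19 in Treg and at -2.16 ± 0.22, -1.17 ± 0.15, -1.30 ± 0.13 and -1.02 ± 0.19 in Tconv. For Ifi213 the strains did not overlap. Aim2, the family's sensor of cytosolic DNA that builds an inflammasome, was the reverse, higher in NOD by 0.64 ± 0.11 in Treg (adjusted p = 0.00066) and 0.74 ± 0.11 in Tconv (adjusted p = 0.000282). Of 10 tested genes of the list of HIN-200 and DNA sensing genes, 2 were higher and 4 lower in NOD Treg and 1 higher and 4 lower in NOD Tconv. The second higher call in Treg was that of Tbk1, a kinase downstream of DNA sensing, at 0.39 ± 0.10 (lost in 4 of 26 alternatives). Ifi203 was not called, at 0.23 ± 0.11 and 0.33 ± 0.11. The lower call on Ifi214 in Treg ended with trended and robust variances (adjusted p = 0.0893), and without NOD fusion Treg replicate 1 (0.0640), NOD ires Treg replicate 1 (0.0882), B6 fusion Treg replicate 1 (0.127) or B6 ires Treg replicate 2 (0.0745). The array with more Ifi209 or Ifi203 also had the higher interferon median in 7 of 8 groups, as for Ifi206. The same count was 6 of 8 for Ifi214, 5 of 8 for Ifi213 and Ifi208, and 3 of 8 for Aim2. Here too the share over all genes was not computed. These genes resemble each other in sequence, and whether a probe set also reads a relative was not tested.

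Around Trim12a, the TRIM cluster of chromosome 7 held smaller differences of the same direction. Whether a probe set of these TRIM genes also reads a relative was not tested. Trim12c, another TRIM gene of the cluster, lay below B6 on all NOD arrays, at -0.68 ± 0.14 in Treg (adjusted p = 0.00291) and -0.92 ± 0.14 in Tconv (adjusted p = 0.000338). Trim30d was lower, at -0.77 ± 0.16 and -0.98 ± 0.16, Trim34a at -0.54 ± 0.12 in Tconv (-0.11 ± 0.12 in Treg, not called), and Trim30a was called in neither, at -0.17 ± 0.13 and -0.28 ± 0.13. Of 10 tested genes of the list of antiviral TRIM proteins, Trim12a apart, 2 were called lower in NOD Treg and 3 in NOD Tconv, and none higher. The 2 of 10 in Treg is near the 21.0% of all genes called there, and 15.9% were called in Tconv. Between cell types Trim30d and Trim14 were higher in Treg, by 0.79 ± 0.11 and 0.76 ± 0.06.

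Of 17 tested APOBEC and retrovirus restriction genes other than Apobec3, 4 were called lower in NOD Treg, 1 in NOD Tconv and none higher, beside 21.0% of all genes called in Treg and 15.9% in Tconv. Bst2, the tetherin that holds budding virions at the cell surface, was lower in NOD Treg at -0.63 ± 0.14 (adjusted p = 0.00496), and Rnaseh2c, a subunit of ribonuclease H2, at -0.40 ± 0.08 in Treg and -0.27 ± 0.08 in Tconv, where the call ended in 9 of 26 alternatives (adjusted p of at most 0.144). Between cell types, 10 of the 17 were higher in Treg and 2 lower, with a median of 0.27 against -0.01 over all genes tested, of which 16.7% were higher and 11.9% lower. Of these calls, those on Ifitm2 (higher) ended in 16 of 25 alternatives, on Rnaseh2b (higher) in 11 of 26 and on Rnaseh2c (lower) in 13 of 26. The endosomal RNA sensor Tlr7 was higher in Treg by 1.49 ± 0.15, Ifitm3, which blocks viral entry, by 1.31 ± 0.23, and the dNTP hydrolase Samhd1 by 1.11 ± 0.06 (adjusted p = 1.3e-10). Fv1, which restricts murine leukaemia viruses and lies near Zfp979, was lower in Treg at -0.26 ± 0.06 and differed little between the strains (0.07 ± 0.09 in Treg and 0.06 ± 0.09 in Tconv, not called). Next to Apobec3 itself, Cbx7, a Polycomb protein, was lower on all NOD arrays than on all B6 arrays, at -0.78 ± 0.10 in Treg and -0.43 ± 0.10 in Tconv.

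Of 11 tested inflammasome genes other than Nlrp1a, 2 were called higher and none lower in NOD Treg, and 2 higher and 1 lower in NOD Tconv, beside 21.0% of all genes called in Treg and 15.9% in Tconv. The count in Treg is near that background. Casp1, the caspase that NLRP1 inflammasomes activate, was at 0.63 ± 0.22 in Treg (adjusted p = 0.049), a call that ended in 14 of 26 alternatives, with an adjusted p of at most 0.232 (without B6 fusion Treg replicate 1). Txnip, a regulator of thioredoxin, was higher in NOD by 0.25 ± 0.08 in Treg and 0.26 ± 0.08 in Tconv, calls that ended in 8 and 10 of 26 alternatives (adjusted p of at most 0.136 and 0.113). The other calls in Tconv were Pycard, at 0.27, and Nlrp6, at -0.39, which ended in 12 of 26 and 9 of 25 alternatives. In Treg Pycard averaged 8.38 in NOD and 8.58 in B6, not called. Between cell types 5 were higher in Treg and 1 lower, led by Casp4 (0.98 ± 0.14), Naip2 (0.86 ± 0.09) and Casp1 (0.63 ± 0.15). Of Nlrp1a's 10 neighbours, 2 were called in Treg, among them Txndc17, a thioredoxin-like gene, at -0.36 ± 0.11 (lost in 5 of 26 alternatives), and 0 in Tconv by limma (3 at an unadjusted p under 0.05). Near H60b, Rps12, a ribosomal protein gene, was lower in NOD Treg at -0.90 ± 0.14, and the kinase Sgk1 was higher in NOD Tconv by 0.93 ± 0.10 with 0.02 ± 0.10 in Treg. Of the receptor side of NKG2D, only the adaptors Hcst and Tyrobp were tested, and neither was called between the strains (-0.22 ± 0.08 and -0.18 ± 0.12 in Treg). Hcst was lower in Treg than in Tconv, at -0.37 ± 0.06.

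Zfp979 had 2 called neighbours in Treg and 3 in Tconv. Zfp933 was higher in NOD by 0.37 ± 0.12 in Treg and 0.42 ± 0.12 in Tconv (lost in 6 and 5 of 26 alternatives), and Zfp991 by 0.73 ± 0.17 in Tconv (0.46 ± 0.17 in Treg, not called), each far under the difference of Zfp979. Zfp985 was not called, at 0.14 ± 0.19 and 0.43 ± 0.19. Whether the probe sets of these zinc finger genes also read relatives was not tested. Of 11 tested genes of KRAB zinc finger repression, 2 were higher and 1 lower in NOD Treg and 2 higher in NOD Tconv, beside the same 21.0% and 15.9% of all genes. Zfp58 was higher by 0.52 ± 0.11 in Treg and 0.39 ± 0.11 in Tconv (there lost in 5 of 26 alternatives), and Uhrf1, which guides maintenance DNA methylation, was lower, at -0.52 ± 0.12 in Treg. The other higher call in both cell types was Atf7ip, at 0.28 in Treg and 0.27 in Tconv. Its calls were lost in 6 and 8 of 26 alternatives, and in 1 more of each its direction reversed, not called.

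The stretch around BC018473 held the most called neighbours, 6 of 10 in each cell type. Some of these calls were weak. In Treg those on Rhbdf2 and Jmjd6 ended in 9 and 15 of 26 alternatives. In Tconv those on Cygb and Prcd ended in 6 and 19 of 25. The sialyltransferase genes St6galnac1 and St6galnac2, on either side of it, lay above B6 on all NOD arrays. St6galnac1 was higher by 1.63 ± 0.12 in Treg (adjusted p = 2.99e-08) and 1.46 ± 0.12 in Tconv (adjusted p = 1.22e-07), and St6galnac2 by 1.08 ± 0.14 and 2.57 ± 0.14. Snhg16, a host transcript of small nucleolar RNAs, was higher by 0.75 ± 0.11 in Treg and 0.79 ± 0.11 in Tconv, and Mettl23 was lower, at -0.42 ± 0.08 and -0.44 ± 0.08.

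Patterns most like those of the 7 genes were ranked by Pearson's r over the 16 arrays, among genes tested. The arrays of each of the 7 fall into separate NOD and B6 clusters, so r is given as a measure of likeness only. Ifi206 was most like its neighbours Ifi213 (r = 0.958) and Ifi209 (0.951), and then Tex30 (0.946). Apobec3 was most like Ly6e (0.985), itself an interferon-induced surface protein, the amino acid transporter Slc1a5 (0.983) and D17H6S56E-5 (0.980). Trim12a was most like Dapk1 (0.973), Saraf (0.970) and Pttg1 (0.959). Nlrp1a and H60b shared Habp4 (0.981 and 0.975), and BC018473 and Zfp979 shared Mrpl20 (both 0.974). Vcl was near both Nlrp1a (0.979) and BC018473 (0.976). The number of genes with r above 0.9 was 22 for Ifi206, 47 for Trim12a, 59 for Apobec3 and 83 to 91 for the 4 genes high in NOD.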

How the data were processed

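The deposited table holds intensities on a linear scale for 16 Affymetrix Mouse Gene 1.0 ST arrays. Per the submitters' processing notes, Affymetrix Power Tools and RMA were used. Neither versions nor the genome build are given in the labels used, and no scanner files were used. The members and gene lists were chosen with earlier results of these data known.

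The log2 of each deposited intensity was taken, with no pseudocount. Of 25108 probe sets, 21157 carried 1 gene symbol in the platform annotation, 1341 several and 2610 none. For a gene with several probe sets, the brightest on average was used. Genes above the 40th percentile (log2 6.06) on at least 2 arrays were tested, 12798 of 19531. A linear model with 8 group means was fitted with limma 3.58.1 (R 4.3.3, 8 residual and 9.80 prior degrees of freedom), two-sided, with Benjamini-Hochberg adjustment over all tested genes and a threshold of 0.05. The contrasts were NOD minus B6 in each cell type, Treg minus Tconv, fusion minus ires in each cell type, and the strain difference between cell types and between lines. RefSeq names (GRCm38.p6) matched 12792 tested genes.

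Named genes were the 7 members, the 3 genes most like each by Pearson's r, called neighbours, and of each list up to 6 called genes by size of difference and relatives of a member. Not all of these are printed. Provisional symbols (Gm, Rik, LOC) and small RNAs were counted, not named. Lists were antiviral TRIM proteins, APOBEC and restriction genes, HIN-200 and DNA sensing genes, inflammasome genes, NKG2D genes, KRAB repression genes, interferon response genes and markers of Treg, T cells, B and plasma cells, myeloid cells, dendritic cells, cytotoxic and NK cells, and erythrocytes with platelets.

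Alternatives were no filter, the 60th percentile, median centring, quantile normalization, trended and robust variances, array weights, other uses of probe sets, only the groups compared, replicate blocks and leaving out each array. Leaving out both B6 fusion arrays numbered 1 was added after seeing the data. The fit was tested on simulated data with 12798 genes: of 100 genes changed by 0.5 (log2), 99% were recovered for Treg minus Tconv, 83% for fusion minus ires in Treg and 42% for the strain difference between cell types, and of 100 changed by 1, 100%, 100% and 99%. The simulated errors were drawn independently for each array, so deviations shared between arrays were not covered.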

Additional observations from a re-analysis of the deposited data

Results flagged for a closer look

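The strain difference of 2 neighbouring genes differed between the cell types, by the test of the interaction itself. Cell type markers were left out of this flagging. Among them the same test (limma) also called Tnfrsf18 at -0.94 ± 0.12 (adjusted p = 0.000309), Lrrc32 at -0.93 ± 0.17 (0.00675) and Itgam at -0.83 ± 0.19 (0.0418). St6galnac2, a sialyltransferase gene beside BC018473, had a strain difference in Treg minus that in Tconv of -1.49 ± 0.20 (limma, adjusted p = 0.000575). Its level was 7.83 ± 0.07 in NOD Treg and 6.75 ± 0.30 in B6 Treg, and 9.34 ± 0.35 in NOD Tconv and 6.77 ± 0.15 in B6 Tconv (SD, n = 4 arrays each). Sgk1, a serum and glucocorticoid regulated kinase gene near H60b, had -0.92 ± 0.14 (adjusted p = 0.00125). NOD and B6 differed for Sgk1 by 0.02 in Treg and 0.93 in Tconv. Both remained called under all 26 alternatives run for them, with adjusted p of at most 0.00576 for St6galnac2 and 0.0231 for Sgk1.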

How the results depend on the processing

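The 7 genes kept the direction of their strain differences in all 378 values from 27 alternatives each, and 376 moved by less than the spread within groups. The exceptions were Apobec3 as the mean of its probe sets, at -1.78 in Treg and -1.23 in Tconv. Leaving out single arrays could not turn a direction, since all NOD arrays lay on one side of all B6 arrays. The genes were chosen for these differences, so nothing is read from the kept directions. Of 938 values from the tested contrasts of the 7 genes, 4 lost and 11 gained a call and none reversed with a call.

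Genes of the 7 called for Treg minus Tconv numbered 1 after median centring and 1 to 2 leaving out single arrays. For the strain difference between cell types 1 was called (Apobec3) with the 60th percentile filter, trended and robust variances and the mean of probe sets, and 0 to 1 leaving out single arrays. Quantile normalization called 61 genes higher and 86 lower for the strain difference between cell types, against 32 and 73. Fusion minus ires in Tconv called 6 genes with trended and robust variances. After median centring, fusion minus ires in Treg called 48 higher and 13 lower, against 51 and 27, and NOD minus B6 called 1650 higher and 753 lower in Treg, against 1433 and 1257, and 1934 and 368 in Tconv, against 1202 and 831. Atf7ip, of the KRAB list, reversed with the mean of its probe sets, at -0.042 in Treg and -0.015 in Tconv, neither called.

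The replicate numbers were not taken to pair the Treg and Tconv arrays of a line. Deviations of the arrays numbered 1 from their group means correlated at 0.398 in B6 fusion, 0.239 in NOD fusion, 0.396 in B6 ires and 0.0803 in NOD ires. Between any 2 groups this correlation ran from -0.37 to 0.47, so the check cannot show whether the arrays were paired. With the number as a replicate block, 1 of the 7 was called for the strain difference between cell types (Apobec3, adjusted p = 0.0449). With line and number as the block 2 were (Apobec3 0.0384, H60b 0.0121), the count over all genes was 258, and H60b was called for Treg minus Tconv (0.0429).

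Leaving out single arrays gave 1597 to 3063 genes for NOD minus B6 in Treg, 841 to 2365 in Tconv, 3242 to 3667 for Treg minus Tconv, 30 to 91 and 2 to 12 for fusion minus ires in Treg and Tconv, 69 to 141 for the strain difference between cell types and 7 to 19 between lines. Counts lower by over 1.5 times came for NOD minus B6 in Treg without B6 ires Treg replicate 2 (1597), B6 fusion Treg replicate 1 (1640) or NOD fusion Treg replicate 2 (1744), and in Tconv without NOD ires Tconv replicate 1 (841), B6 fusion Tconv replicate 1 (894), NOD fusion Tconv replicate 2 (911) or B6 ires Tconv replicate 1 (1030). They came for fusion minus ires in Treg without any array of NOD Treg or of B6 ires Treg, or B6 fusion Treg replicate 1 (30 to 46), and for the strain difference between cell types without B6 fusion Tconv replicate 1 (69). Neighbours called were 17 to 24 in Treg and 18 to 26 in Tconv. Leaving out both B6 fusion arrays numbered 1 gave 1542, 974, 34, 47 and 8 genes for NOD minus B6 in Treg and Tconv, fusion minus ires in Treg, and the strain difference between cell types and between lines. The causes were not tested. Of 107 results of named genes outside the 7, 67 stayed called under every alternative run. A fit of only the groups compared applies to no contrast that uses all groups. Levels near the bottom of an array, as of Zfp979 in B6, limit the strain differences.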
